A study of Mus musculus with 6 samples.

Results

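The MAPK phosphatases and Sprouty genes are feedback inhibitors of growth factor signalling. They were followed in NIH3T3 mouse fibroblasts, an immortalized line that the study calls Normal cells, on 6 Affymetrix gene arrays of total RNA. FSK-treated cells (NF, 3 arrays) received 10 μM forskolin at 24 h and at 48 h of growth, a compound that switches on adenylate cyclase and, through cAMP, PKA. Untreated cells (N, 3 arrays) received none, and the paper's scheme gives such cells the vehicle DMSO. Both groups were plated in 25 mM glucose and changed after 16 h to medium with 1 mM glucose. The paper counts the hours of FSK and harvest from this change, so both groups were harvested 72 h after it. By then, per the paper, the glucose of the medium was used up with or without FSK. The arrays of a group are biological replicates per the labels. Both groups are of 1 cell line, and cells with oncogenic K-Ras were not analysed here. The genes were chosen by name, with earlier results of these data known, from a list of 10 (Dusp1, Dusp4, Dusp5, Dusp6, Dusp10, Dusp14, Dusp16, Spry1, Spry2 and Spry4). A gene was measured where a probe set was paired with its symbol alone. This left 8 genes, with 1 probe set each, of 16797 genes on the arrays. Dusp14 and Spry1 were not analysed.

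MAP kinases (ERK, JNK and p38) are switched on by phosphorylation of a threonine and a tyrosine, and the dual-specificity phosphatases (DUSPs) remove both phosphates. Many of these phosphatases are transcribed in response to the kinases they switch off, which makes a negative feedback loop. Sprouty proteins act further up, between receptor tyrosine kinases and RAS, and are also induced by ERK activity. PKA meets this circuit in several places, since cAMP can restrain or raise ERK activity depending on the cell type, and the Dusp1 promoter carries sites for the cAMP-responsive factor CREB.

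The promoters of 4 of the genes are shown, because they separate a gene with a complete cAMP response element from relatives without one. Each sequence runs 5′ to 3′ on the strand of the gene, from 250 bases before the annotated start to 50 bases from it, and was taken from RefSeq (GRCm38.p6). The letters searched on both strands were the full cAMP response element TGACGTCA, which reads the same either way and holds 2 overlapping short sites, and the short site TGACG alone, which appears as its reverse complement where it lies on the other strand. The CArG box, the site of serum response factor, was also searched. Capitals mark each match.
Dusp1 (chr17:26508423-26508722, minus strand): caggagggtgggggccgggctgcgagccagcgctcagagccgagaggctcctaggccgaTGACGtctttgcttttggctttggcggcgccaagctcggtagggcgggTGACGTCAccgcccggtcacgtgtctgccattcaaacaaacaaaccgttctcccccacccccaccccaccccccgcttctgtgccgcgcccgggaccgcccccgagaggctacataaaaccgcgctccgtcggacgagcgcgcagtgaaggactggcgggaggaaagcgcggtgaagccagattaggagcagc
Dusp10 (chr1:184034131-184034430, plus strand): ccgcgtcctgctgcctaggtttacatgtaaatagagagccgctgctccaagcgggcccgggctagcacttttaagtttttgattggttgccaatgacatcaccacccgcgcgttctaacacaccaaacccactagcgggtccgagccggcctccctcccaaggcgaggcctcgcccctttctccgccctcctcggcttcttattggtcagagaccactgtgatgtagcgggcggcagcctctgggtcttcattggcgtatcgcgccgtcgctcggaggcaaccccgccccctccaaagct
Dusp16 (chr6:134792579-134792878, minus strand): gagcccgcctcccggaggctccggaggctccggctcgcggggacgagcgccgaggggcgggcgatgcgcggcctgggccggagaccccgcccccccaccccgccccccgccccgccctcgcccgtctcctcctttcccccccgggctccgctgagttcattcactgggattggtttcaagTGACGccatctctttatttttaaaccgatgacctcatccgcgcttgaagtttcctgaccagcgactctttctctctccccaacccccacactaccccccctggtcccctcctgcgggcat
Dusp5 (chr19:53528895-53529194, plus strand): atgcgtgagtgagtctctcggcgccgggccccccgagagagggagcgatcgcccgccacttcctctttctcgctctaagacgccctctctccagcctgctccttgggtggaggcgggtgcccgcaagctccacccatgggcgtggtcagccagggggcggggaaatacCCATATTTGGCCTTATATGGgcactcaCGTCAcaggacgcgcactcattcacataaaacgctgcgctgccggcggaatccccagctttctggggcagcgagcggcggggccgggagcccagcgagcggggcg

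The Dusp1 window held the full element 143 bases before the start and a further short site at 191 bases. A full element lay in 1.79% of 32851 promoter windows of the same length and a short site in 20.8%. Dusp16 had 1 short site at 70 bases and Dusp5 had 1 at 55 bases. Dusp5 also had 2 CArG boxes next to each other, at 82 and 72 bases, and 1.63% of all windows held such a box. The windows of Dusp10, Dusp6 and Spry2 held none of these letters. Windows were at hand for 6 of the 8 genes measured, and a match is a string of letters and not a measured binding site.

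The arrays limit what can be read from these genes. Medians of the 6 arrays were alike (log2 values of 3.84 to 3.93), but the SD across probe sets was 2.58 to 2.62 in 5 arrays and 2.42 in N replicate 1. Among 4843 genes with a mean log2 value between 5 and 8, N replicate 1 was the lowest of the N arrays in 78.5%, and it was the lowest in all 8 of the MAPK phosphatases and Sprouty genes. Markers of fibroblasts were present (9 measured, each above a log2 value of 3.7 in every array, mean level 9.93 to 10.16 in NF and 9.32 to 9.90 in N). Markers of epithelial and endothelial cells were low, with mean levels of 3.00 to 3.11 in NF and 3.05 to 3.32 in N for 6 epithelial genes, 2.86 to 2.91 in NF and 2.80 to 3.07 in N for 6 endothelial genes. All 6 endothelial genes but only 3 of the epithelial ones were below 3.7 in every array. Cdh1, Krt8 and Krt18, named after their values were seen, were above it in some arrays, up to 4.25 for Cdh1 in N replicate 3. Of 4 leukocyte genes (mean level 3.55 to 3.76 in NF and 3.10 to 3.62 in N), 3 were below 3.7 in every array, Ptprc, which defines leukocytes, among them. The other, Lyz2, a lysozyme gene of myeloid cells, was above it in every array, at 6.34, 6.06 and 6.16 in NF replicates 1, 2 and 3, against 4.07, 5.98 and 5.54 in N replicates 1, 2 and 3. Every NF array of Lyz2 was above every N array, with a log2 change of 0.99 (adjusted p = 0.371 from limma), and its part in the results was not tested. The value of 3.7 is the median over all probe sets tested and is used here as the bound below which a probe set is called dim.

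None of the 8 genes passed the test between FSK-treated and untreated cells. At an adjusted p under 0.05 from limma, 0 were higher with FSK and 0 lower, while 1.83% of all genes were higher and 0.72% lower. Of the 8, 3 had an unadjusted limma p under 0.05, all of them higher in NF (Dusp1, Dusp10 and Dusp16), and over all genes 13.8% had one in either direction. The methods' t-test, which the study names for its data in general while naming limma for the arrays, gave 1 at an unadjusted p under 0.05 (Dusp10), where 11.1% of all genes had one, and 0 after Benjamini-Hochberg adjustment. The mean was higher in NF in 4 genes and lower in 4, the median log2 change was -0.04 and that of all genes -0.026. The changes ran between -0.80 and 1.00. The NF arrays lay entirely above the N arrays in 2 genes (Dusp10 and Dusp16) and entirely below in 0. The shares over all genes were 10.5% and 9.7%. All genes include 7838 of 16797 that were dim in every array, against 0 of the 8. Of 4843 genes with a mean log2 value between 5 and 8, 911 had NF entirely above N and 489 entirely below. At an unadjusted limma p under 0.05, 777 of these were higher and 446 lower. Their median log2 change was 0.11, so NF above N was more frequent there than over all genes.

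**Figure D1:**
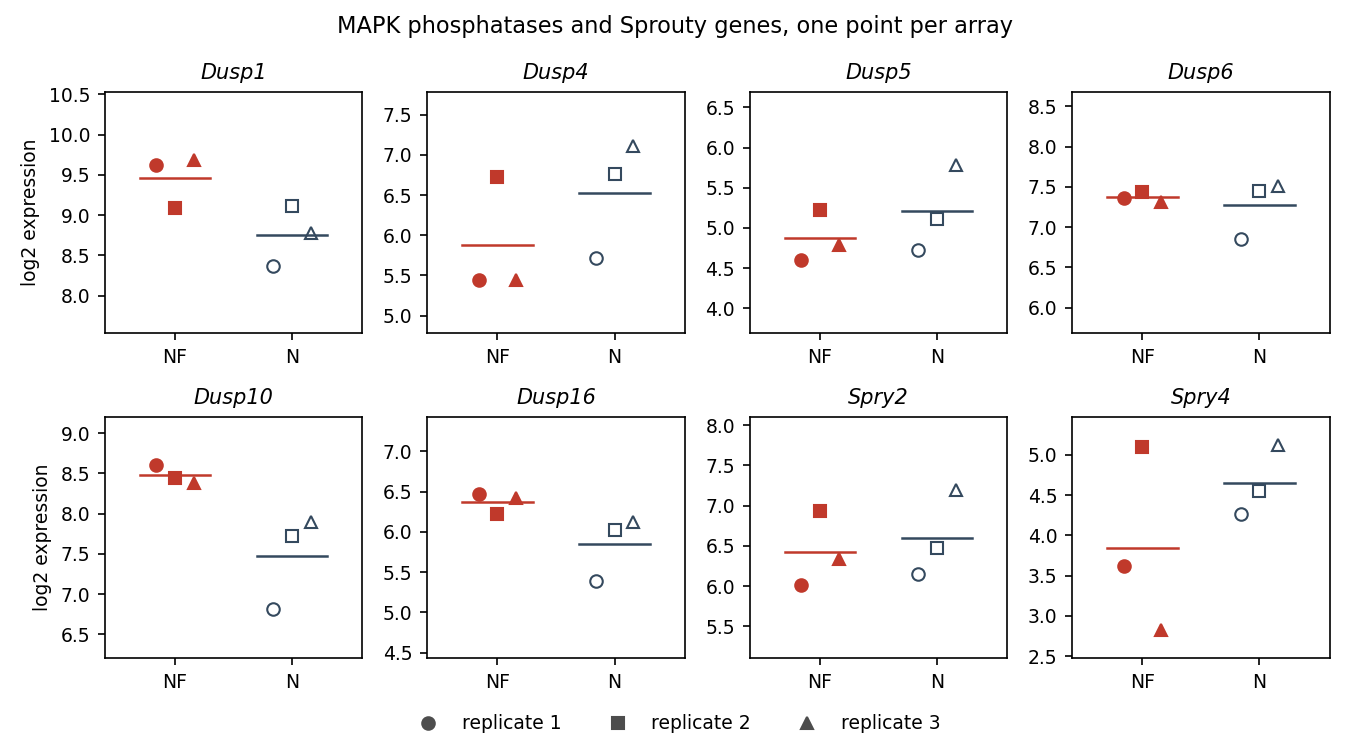
Log2 expression (vertical axis, each panel spanning the same number of log2 units) of the MAPK phosphatases and Sprouty genes in FSK-treated (NF, filled, left) and untreated (N, open, right) Normal cells, with 1 point per array, its shape giving the replicate number, and a bar for the group mean. Dusp10 and Dusp16 show no overlap between groups, and in Dusp4, Dusp5, Spry2 and Spry4 the square of NF replicate 2 lies above the other NF points.

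NF lay above N in 10.5% of all genes and in 911 of the 4843 with a mean log2 value between 5 and 8. Dusp10 and Dusp16 were the members whose groups did not overlap, both with NF above N. Both prefer JNK and p38, and a link to these substrates was not tested. Dusp1, which also acts on these kinases, had overlapping groups. Dusp8, a relative outside the members that also acts on these kinases, had every NF array below every N array at its brighter probe set. Dusp10 (MKP-5), which acts on both kinases, had log2 values of 8.60, 8.45 and 8.38 in NF replicates 1, 2 and 3, against 6.81, 7.72 and 7.90 in N replicates 1, 2 and 3. Every NF array was above every N array, and N replicate 1 was the farthest down. The mean was 8.48 ± 0.11 in NF and 7.48 ± 0.59 in N (SD, n = 3 each). Its log2 change was 1.00 (standard error 0.27, 95% confidence interval 0.38 to 1.62), 2.00-fold, with an adjusted p of 0.119 from limma. Dusp10 passed the test without N replicate 1, with a smaller log2 change of 0.67 and an adjusted p of 0.0236, where 2.93% of all genes were called higher. It also passed when the 6 arrays were quantile normalized once more (0.93, adjusted p = 0.0195), where 2.95% of all genes were.

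Dusp16 (MKP-7), which dephosphorylates JNK and p38 and shuttles between nucleus and cytoplasm, also separated the groups, at a smaller size. Its log2 values were 6.47, 6.22 and 6.42 in NF replicates 1, 2 and 3, against 5.39, 6.02 and 6.12 in N replicates 1, 2 and 3. The groups did not overlap, but NF replicate 2 was closer to N replicate 3 than to the other NF arrays. The difference on the log2 scale was 0.53 (standard error 0.20, 95% confidence interval 0.06 to 1.00, adjusted p = 0.307 from limma). Without N replicate 1 it was 0.30, and the adjusted p was 0.286.

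Among the nuclear phosphatases of the members, which are encoded by immediate early or delayed early genes, Dusp1 was the one with a higher mean in NF. Dusp1 (MKP-1) acts on p38, JNK and ERK and is the gene with the complete cAMP response element printed above. It had log2 values of 9.62, 9.09 and 9.69 in NF replicates 1, 2 and 3, against 8.37, 9.11 and 8.78 in N replicates 1, 2 and 3. NF replicates 1 and 3 were above all N arrays, and NF replicate 2 was level with N replicate 2. Dusp1 had a log2 change of 0.72 (standard error 0.23, 95% confidence interval 0.18 to 1.25), 1.64-fold, with an adjusted p of 0.202 from limma.

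Dusp4 (MKP-2), a nuclear phosphatase of ERK and JNK, had log2 values of 5.45, 6.72 and 5.45 in NF replicates 1, 2 and 3, against 5.72, 6.76 and 7.11 in N replicates 1, 2 and 3. NF replicates 1 and 3 were below every N array, whereas NF replicate 2 stood within the N range. The mean was 5.87 ± 0.73 in NF and 6.53 ± 0.72 in N (SD, n = 3 each). Dusp4 had a log2 change of -0.65 (standard error 0.43, 95% confidence interval -1.65 to 0.35, adjusted p = 0.598 from limma).

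Dusp5, a nuclear phosphatase specific for ERK and the one with paired CArG boxes, had log2 values of 4.60, 5.22 and 4.79 in NF replicates 1, 2 and 3, against 4.73, 5.11 and 5.78 in N replicates 1, 2 and 3. The groups overlapped, with NF replicate 2 again the highest of the NF arrays. Dusp5 had a log2 change of -0.34 (95% confidence interval -0.98 to 0.30, adjusted p = 0.685 from limma). It depended on single arrays, at -0.05 when N replicate 3 was left out, -0.20 when NF replicate 1 was, -0.51 when NF replicate 2 was and -0.58 when N replicate 1 was.

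Dusp6 (MKP-3), the cytoplasmic phosphatase specific for ERK and a common readout of ERK activity, had log2 values of 7.36, 7.44 and 7.31 in NF replicates 1, 2 and 3, against 6.85, 7.45 and 7.51 in N replicates 1, 2 and 3. The NF arrays lay within 0.14 of each other, between N replicate 1 and the other N arrays. Dusp6 had a log2 change of 0.10 (95% confidence interval -0.34 to 0.53, adjusted p = 0.879 from limma). Its direction depended on N replicate 1, without which the change was -0.11.

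Of the members measured, the Sprouty gene Spry4 had the widest range of NF arrays, and Dusp4 the widest range of N arrays (1.39 on the log2 scale). Spry4, which binds RAS activators and RAF and is induced by ERK, had log2 values of 3.62, 5.10 and 2.83 in NF replicates 1, 2 and 3, against 4.27, 4.55 and 5.12 in N replicates 1, 2 and 3. NF replicates 1 and 3 were below every N array and below the bound of 3.7 for dim probe sets, and NF replicate 2 was level with N replicate 3. The NF arrays spanned 2.26 on the log2 scale, the N arrays 0.85. Spry4 had a log2 change of -0.80 (standard error 0.51, 95% confidence interval -1.98 to 0.39, adjusted p = 0.585 from limma).

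Spry2, which binds the adaptor GRB2 and the ubiquitin ligase CBL, had log2 values of 6.02, 6.93 and 6.34 in NF replicates 1, 2 and 3, against 6.15, 6.47 and 7.19 in N replicates 1, 2 and 3. The groups overlapped along most of their range. Spry2 had a log2 change of -0.18 (95% confidence interval -0.89 to 0.54, adjusted p = 0.866 from limma). It was 0.12 without N replicate 3 and 0.03 without NF replicate 1, so the sign was not settled.

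**Figure D2:**
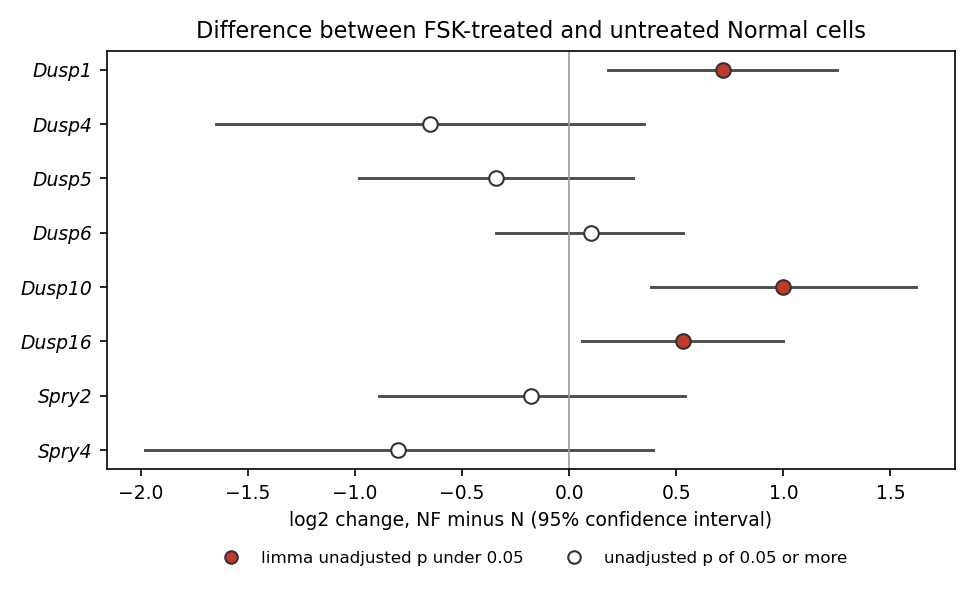
Log2 change (NF minus N, horizontal axis) of each MAPK phosphatase and Sprouty gene with its 95% confidence interval from limma, filled where the unadjusted p was under 0.05. The intervals of Dusp1, Dusp10 and Dusp16 lie above 0, between 0.06 and 1.62, and the other 5 include 0.

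NF replicate 2 was the highest NF array in Dusp4, Dusp5, Dusp6, Spry2 and Spry4, 5 of the 8 genes, against 24.8% of all genes. Without NF replicate 2, the log2 change was -1.42 for Spry4 (adjusted p = 0.0988 from limma) and -1.07 for Dusp4 (adjusted p = 0.319), and 0 of the 8 passed in either direction (limma). Other arrays moved these values the other way. Spry4 was at -0.29 without NF replicate 3, and Dusp4 was at -0.36 without N replicate 3 and at -0.44 without NF replicate 1 or NF replicate 3. Without both N replicate 1 and NF replicate 2, a pair left out after the data were seen, 4 genes passed limma's test. Dusp1 (0.72, adjusted p = 0.0395) and Dusp10 (0.68, adjusted p = 0.0414) were higher, where 3.22% of all genes were, and Dusp4 (-1.48, adjusted p = 0.00254) and Spry4 (-1.61, adjusted p = 0.0156) were lower, where 2.96% were. Leaving out arrays for where they lie can itself make differences, so these 4 calls describe the remaining 4 arrays.

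**Figure D3:**
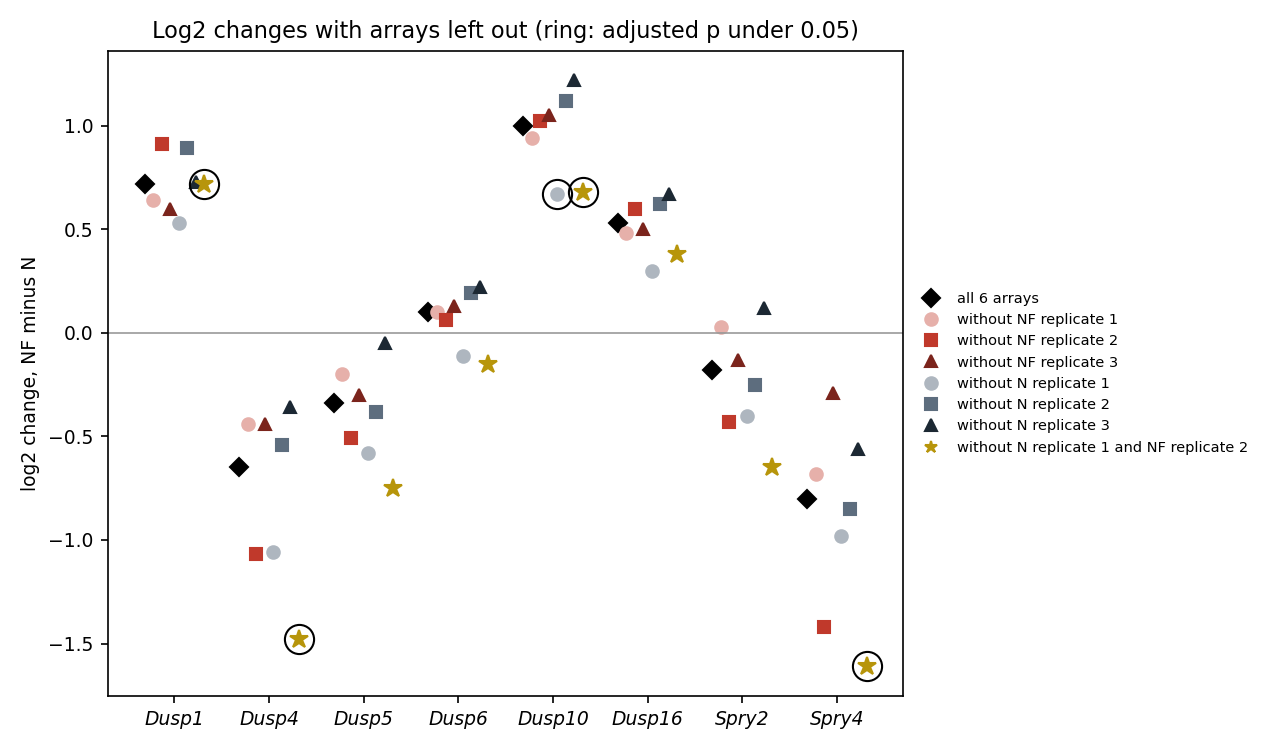
Log2 change (NF minus N, vertical axis) of each MAPK phosphatase and Sprouty gene with all 6 arrays (diamond), without each array in turn, and without NF replicate 2 and N replicate 1 together (star), with a ring where the adjusted p from limma was under 0.05. With 1 array left out, the ring appears at Dusp10 without N replicate 1, and with both left out at Dusp1, Dusp4, Dusp10 and Spry4.

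The kinase cascades were examined next, and the shares of all genes called, 1.83% higher and 0.72% lower, apply to them too. Of 21 genes of the ERK cascade, 13 were measured and 1 rose, Ksr1, the scaffold that brings RAF, MEK and ERK together. Ksr1 had log2 values of 5.27, 5.30 and 5.31 in NF replicates 1, 2 and 3, against 3.79, 3.75 and 3.96 in N replicates 1, 2 and 3. The groups were far apart compared with their spread, and NF replicate 2 was like the other NF arrays. The log2 change was 1.47 (standard error 0.12, adjusted p = 0.00562 from limma), 2.76-fold, and the median of the 13 genes was 0.0062. Ksr1 lost its call when NF replicate 1 or NF replicate 3 was left out. In those fits 0 genes of the pathway lists passed, so the loss was not particular to Ksr1. The other 12 did not pass the test, among them, picked after their values were seen, the MEK genes Map2k1 (-0.18) and Map2k2 (-0.05) and the RAF gene Braf (-0.08).

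Of 16 measured genes of the JNK and p38 cascades, 0 passed limma's test, 0 had an unadjusted limma p under 0.05 and 1 an unadjusted p under 0.05 by the methods' t-test (Mapk12, a p38 kinase, at -0.20, named after its values were seen). By limma the lowest p belonged to Mapkapk3, a kinase downstream of p38 (log2 change 0.35, adjusted p = 0.462 from limma), and Map3k7, which encodes TAK1 (0.33, adjusted p = 0.520). Changes in this list ran between -0.20 and 0.65, with a median of 0.13.

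The close relatives gave no call either. Of 5 other MAPK phosphatases (Dusp2, Dusp7, Dusp8, Dusp9 and the inactive relative Styxl1), 0 passed limma's test, 1 had an unadjusted limma p under 0.05 and 0 by the methods' t-test. The log2 change of Dusp7, a cytoplasmic ERK phosphatase, was 0.49 (adjusted p = 0.402 from limma), with every NF array above every N array. The 2 probe sets of Dusp8, a phosphatase of JNK and p38, differed. The brighter, above the dim bound in every array, had every NF array below every N array (-0.69, adjusted p = 0.243 from limma). The other, below the bound in every array, overlapped (-0.08, adjusted p = 0.910 from limma). Over all genes, 10.5% had every NF array above and 9.7% every NF array below. Of 14 atypical members of the family, 0 passed limma's test, with 3 at an unadjusted limma p under 0.05 (Styx, Dusp19 and Dusp12) and 2 by the methods' t-test (Styx and Dusp11), Dusp11 and Dusp12 being named after their values were seen. Among these, the 2 probe sets of Styx, a catalytically inactive relative that binds ERK, both had every NF array below every N array (-0.56, adjusted p = 0.128, and -0.35, adjusted p = 0.277), and Dusp19 had a log2 change of 0.56 (adjusted p = 0.216).

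Spry3, the remaining Sprouty gene measured, had log2 values of 4.98, 5.01 and 5.68 in NF replicates 1, 2 and 3, against 4.42, 4.52 and 4.06 in N replicates 1, 2 and 3, without overlap. The log2 change was 0.89 (standard error 0.22, adjusted p = 0.0913 from limma), and whether it differs from those of the other Sprouty genes was not tested. Spred1, a Sprouty-related inhibitor of RAS, had a log2 change of -0.35 (adjusted p = 0.652). Of the 3 genes in that list, 0 passed limma's test, with 1 at an unadjusted p under 0.05 by limma and 1 by the methods' t-test.

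Of 12 measured genes of other brakes on receptor and RAS signalling, 0 passed limma's test, with 3 at an unadjusted limma p under 0.05, all higher in NF (Rasa3, Lrig1 and, named after its values were seen, Cblb), and 1 by the methods' t-test (Rasa3). Rasa3, a GTPase-activating protein that switches RAS off, had log2 values of 9.89, 9.60 and 9.78 in NF replicates 1, 2 and 3, against 7.81, 9.19 and 8.38 in N replicates 1, 2 and 3. The groups did not overlap, and N replicate 1 was the lowest. Its log2 change was 1.29 (standard error 0.31, adjusted p = 0.0843 from limma), and it passed without N replicate 1, without N replicate 2, after quantile normalization, without dim probe sets and with trend and robust estimation. Lrig1, which promotes the degradation of EGF receptors, had a log2 change of 1.01 (adjusted p = 0.211).

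Some of the genes that ERK signalling is known to induce shared the array pattern of Dusp4 and Spry4. Of 17 measured genes, 1 fell at an adjusted p under 0.05 (limma), and 16 did not pass. That gene was Myc, a transcription factor of growth, at 8.38, 9.27 and 8.48 in NF replicates 1, 2 and 3, against 9.90, 9.84 and 10.43 in N replicates 1, 2 and 3 (log2 change -1.35, adjusted p = 0.0447 from limma). All NF arrays of Myc were below all N arrays, with NF replicate 2 the highest of them. Myc lost its call without N replicate 2, N replicate 3, NF replicate 1 or NF replicate 3 and with replicate numbers as a block. In the fits without NF replicate 1 or NF replicate 3, 0 genes of the pathway lists passed. The mean was lower in NF in 13 of the 17 genes and higher in 4, and their median log2 change was -0.43. At an unadjusted limma p under 0.05, 4 were lower in NF (Myc, Egr1, Hbegf and Etv5) and 2 higher (Etv1 and Ereg), and the methods' t-test gave 3 (Myc, Egr1 and Etv1), all but Myc being named after their values were seen. Etv1, an ETS transcription factor, had the lowest p after Myc, with values of 5.81, 5.79 and 5.56 in NF replicates 1, 2 and 3, against 4.99, 5.28 and 4.79 in N replicates 1, 2 and 3 (log2 change 0.70, adjusted p = 0.0733 from limma). Its other probe set gave 1.11 (adjusted p = 0.310), and Ereg, a ligand of the EGF receptor, gave 0.58 (adjusted p = 0.231). In Etv1 and Ereg every NF array was above every N array, opposite in sign to the median of the list.

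NF replicate 2 was the highest NF array in 14 of the 17 genes. As deviations from the 6-array mean of a gene, the list had medians of -0.556, 0.486 and -0.622 in NF replicates 1, 2 and 3, against -0.0115, 0.261 and 0.367 in N replicates 1, 2 and 3. Both NF replicates 1 and 3, but not NF replicate 2, were below every N array in 8 of the 17, as in 2 of the 8 MAPK phosphatases and Sprouty genes (Dusp4 and Spry4) and in 3.96% of all genes. The same held in 1 of the 5 other MAPK phosphatases (Dusp9) and 1 of the 14 atypical members of the family. It held in 0 genes of each remaining pathway list. This way of counting was chosen after the values were seen, and the lists were chosen with earlier results of these data known. What set NF replicate 2 apart was not tested.

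The following were likewise picked after their values were seen. Fosl1, an AP-1 subunit that is stable while ERK is active, had log2 values of 4.56, 6.43 and 4.51 in NF replicates 1, 2 and 3, against 5.59, 5.95 and 6.59 in N replicates 1, 2 and 3. Ccnd1, which encodes cyclin D1, had 7.52, 9.59 and 6.76 in NF, against 8.59, 8.89 and 9.17 in N. In both, NF replicates 1 and 3 were below every N array, while NF replicate 2 was within the N range for Fosl1 and above it for Ccnd1. Without NF replicate 2, 5 genes of the list fell at an adjusted p under 0.05 (limma), namely Ccnd1, Egr1, Etv5, Hbegf and Myc, where 0.536% of all genes did.

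**Figure D4:**
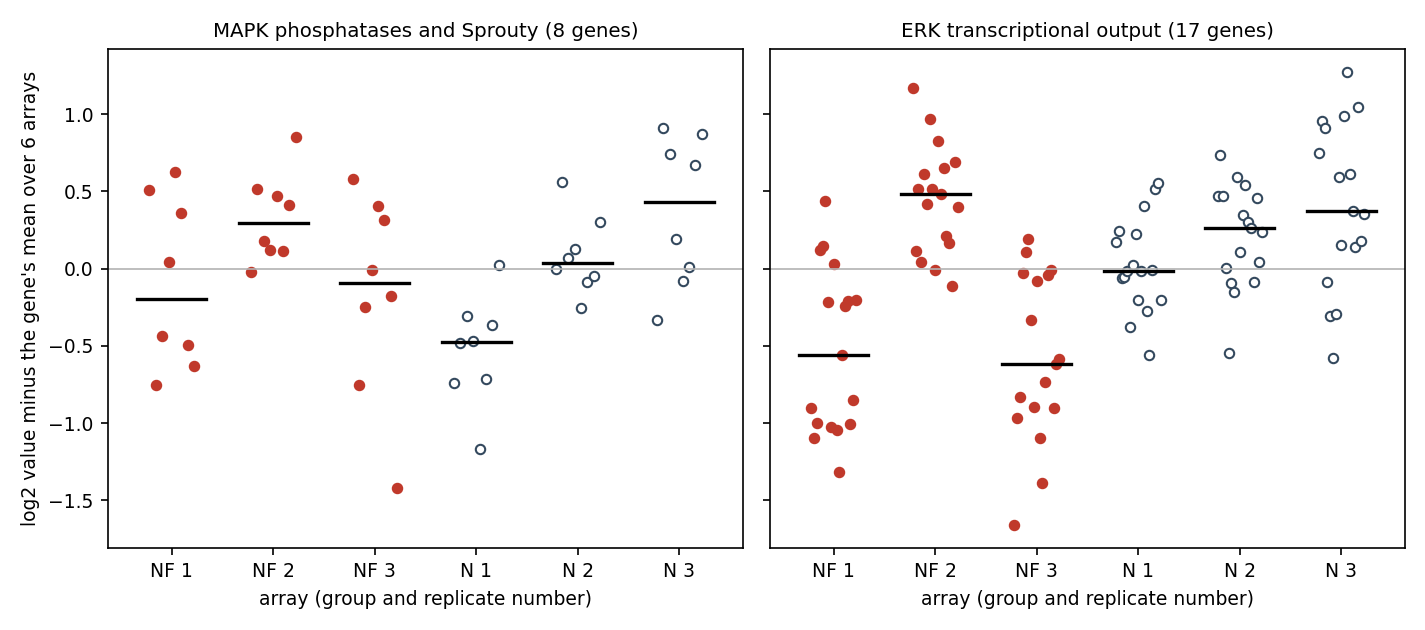
Log2 value of each gene minus its mean over the 6 arrays (vertical axis) for the MAPK phosphatases and Sprouty genes (left panel) and the genes of ERK transcriptional output (right panel), by array, with 1 point per gene, NF filled and N open, and a line at the median. In the right panel the medians are -0.556, 0.486 and -0.622 for NF replicates 1, 2 and 3, and N replicate 1 has the lowest median of the left panel, -0.475.

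Of 9 measured genes that cAMP is known to induce, 2 rose at an adjusted p under 0.05 from limma, where 1.83% of all genes did. NF replicate 2 was the highest NF array in 1 of the 9. The mean was higher in NF in all 9, against 7590 of all 16797 genes, with a median log2 change of 0.34. At an unadjusted p under 0.05 there were 4 by limma (13.8% of all genes) and 3 by the methods' t-test (11.1%). Every NF array was above every N array in 4 of the 9, against 10.5% of all genes. Of the 9, 4 were dim in every array, which limits what they could show. These were, named after their values were seen, Gem (log2 change 0.03), Crem (0.05), Fosb (0.07) and Nr4a3 (0.34). Nr4a3 was also among the genes whose groups did not overlap. Both genes that passed limma's test degrade cAMP. Pde4b had log2 values of 5.96, 5.20 and 6.13 in NF replicates 1, 2 and 3, against 3.69, 4.29 and 3.54 in N replicates 1, 2 and 3 (log2 change 1.92, adjusted p = 0.0188 from limma). Pde4d rose by 1.57 on the log2 scale at 1 probe set (adjusted p = 0.00843) and by 2.25 at the other (adjusted p = 0.0153). In both genes all NF arrays, replicate 2 included, were above all N arrays. Pde4d and Pde4b lost their calls when NF replicate 1 or NF replicate 3 was left out, where 0 genes of the pathway lists passed. Pde4b lost its call also without N replicate 3 and with replicate numbers as a block. Sik1, a kinase induced through CREB and picked after its values were seen, had log2 values of 7.53, 7.10 and 7.55 in NF replicates 1, 2 and 3. Its values were 5.90, 6.80 and 7.01 in N replicates 1, 2 and 3 (adjusted p = 0.247 from limma). The last dose of FSK was given at 48 h and the cells were harvested at 72 h, so brief responses after each dose were outside what these arrays measured.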

How the data were processed

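The 6 arrays (3 NF, 3 N) were processed by the authors with RMA in the R/Bioconductor package oligo, which corrects background, equalizes array distributions and summarizes probes, per the paper's methods and the submitters' notes. The deposited values are log2 expression values, which arrays were normalized together is not stated, and the authors had dropped probe sets that lack an Entrez gene. Of 22035 probe sets, the 18197 paired with 1 gene symbol (16797 genes) were tested, and 1260 with several symbols and 2578 not listed were left out. The comparison of NF with N used limma 3.58.1 under R 4.3.3 (lmFit, eBayes, prior degrees of freedom 4), with Benjamini-Hochberg adjustment over all probe sets tested and a threshold of 0.05. A gene with several probe sets was counted by the one with the lowest p. The number of arrays limits the precision. The procedure was tested on simulated data.

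The members and lists were chosen with earlier results of these data known. Genes named are the members and, of each list, those past the test or else the 2 with the lowest p, and others are marked where given. The alternatives were the replicate block, quantile normalization, median centring, removal of probe sets with a mean below 3.7, trend and robust estimation, the methods' t-test (named there for the study's data in general, with limma for the arrays), the brightest probe set of a gene and each array left out. A fit lacking both N replicate 1 and NF replicate 2 was added after seeing the data. Promoter sequences came from RefSeq (GRCm38.p6).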

Additional observations from a re-analysis of the deposited data

How the results depend on the processing

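Of 120 combinations of a member with an alternative, 108 kept the direction and the side of the threshold, 7 passed the threshold and 5 turned direction. Part of the 108 was fixed in advance. Each member had 1 probe set, so taking the brightest probe set could change nothing. The replicate block, removal of dim probe sets, trend and robust estimation and the t-tests kept the same difference of means. In these, only the side of the threshold could change. The number of members higher in NF, 0 with all arrays, was 1 after quantile normalization, 1 by the methods' t-test without adjustment (Dusp10 in both) and between 0 and 1 with an array left out. The number lower stayed at 0 in all of these. Without N replicate 1 and NF replicate 2 together, 2 were higher and 2 lower. Dusp6 turned to -0.0028 after quantile normalization, and lay between -0.11 and 0.22 with an array left out and at -0.15 without both arrays. Spry2 lay between -0.43 and 0.12 with an array left out and at -0.65 without both arrays. Over the 8 lists of other pathway genes, 4 genes passed with all arrays, 2 with the replicate block, 8 after quantile normalization, 12 by the methods' t-test without adjustment and 0 with it, between 0 and 8 with an array left out, and 14 without both arrays. The replicate block changed no call of a member, since 0 were higher and 0 lower there too. Arrays of the same number did not deviate together (correlations of -0.0748, -0.0780 and -0.0736), so the numbers were not taken as pairs. The causes of these differences were not tested. The number of arrays limits all of these values, and Spry4 was dim in 2 of them.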
